A study of Rattus norvegicus with 8 samples.

Results

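The comparison described here sets enteric glial cells (EGCs) that received a cannabinoid before lipopolysaccharide (LPS) against EGCs that received LPS alone. It takes 6 of the 8 RNA libraries of the series, chosen by their labels: 4 libraries of pretreated cells, 2 with THC and 2 with THC-COOH, and the 2 libraries of LPS alone. The THC + LPS cells had 0.1 µg/mL THC for 1 h and then LPS. The THC-COOH + LPS cells had 10 nM THC-COOH for 1 h and then LPS. The LPS cells had 1 µg/mL LPS with no pretreatment, and 2 libraries of untreated Control cells give the baseline. All cells are of the rat line EGC/PK060399egfr, grown in serum, so every value describes 1 cell line. The LPS exposure is 24 h in the labels and the methods and 4 h in the text of the results. Cannabinoids were dissolved in ethanol, and whether LPS and Control cells received the solvent is not given in the sources used here, so an effect of the solvent and one of a cannabinoid cannot be told apart. The question is which changes THC and THC-COOH share.

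EGCs support the neurons of the gut wall, and in inflammation they become reactive, with more S100B and GFAP. LPS of bacterial walls is sensed through TLR4, whose adaptor MyD88 passes the signal to NF-κB, a transcription factor of inflammatory genes. THC is the main psychoactive cannabinoid of Cannabis sativa and binds the cannabinoid receptors. THC-COOH is its end product in the liver, in which a carboxyl group stands in place of a methyl group, and it is not psychoactive. The doses were not matched, since 0.1 µg/mL THC corresponds to 318 nM and was thus 31.8-fold more concentrated than THC-COOH.

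Total counts ran from 545779 to 1559935 per library, the lowest in LPS library 2 and the highest in THC library 1, and 7875 of 9848 listed genes entered the tests, those whose highest raw count exceeded 10. Levels are in CPM, counts scaled by library total and TMM factor to 1e+06, and fold changes are pretreated over LPS alone. Genes are listed by Ensembl identifier, and 0 lines of the reference tables used here hold such an identifier. Therefore S100B, GFAP and the markers of other cell types were not looked up, and 30 gene lists fixed for inflammatory, glial, metabolic and stress pathways were not counted. For the same reason only 4 identifiers are printed, with no gene function. The sources used here do not say whether both libraries of a group stem from independent cultures, so the p-values measure only the spread between these libraries.

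No gene passed both thresholds for a change by pretreatment with either cannabinoid before LPS. The mean of the THC and THC-COOH effects was tested against LPS with edgeR's quasi-likelihood test, and a gene was called a differentially expressed gene (DEG) at an adjusted p under 0.05 and a fold change above 1.6. There were 0 DEGs among 7875 genes (0%), with 441 genes (5.6%) at an unadjusted p under 0.05, where 394 would be reached if no gene differed. By DESeq2 there were 0 DEGs and 93 genes under that unadjusted p, and by limma voom 1 DEG and 442 genes. The 93 genes are far fewer than 394, so the p-values of DESeq2 ran high here as a whole and its 0 DEGs carry little weight. ENSRNOG00000057078, described below, still had a pooled adjusted p of 0.000232 by DESeq2. The adjusted p-values of 0.999 given below come from DESeq2. Of the 441 genes, 208 were higher (2.64%) and 233 lower (2.96%) with a cannabinoid. A total of 155 genes (1.97%) combined an unadjusted p under 0.05 with the minimum fold, 80 higher (1.02%) and 75 lower (0.952%). Only 1 gene (0.0127%) reached an adjusted p under 0.05, and its fold change of 1.49 was under the minimum. The median absolute log2 fold change was 0.17 for either cannabinoid, 0.19 for THC and 0.20 for THC-COOH. The count of DEGs depended on the fit: it was 0 to 7 over 17 other fits with both thresholds, 6 when 3 genes with over 90% of their CPM and at least 50 counts in 1 library were removed, 4 without LPS library 1 and 5 without LPS library 2.

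**Figure D1:**
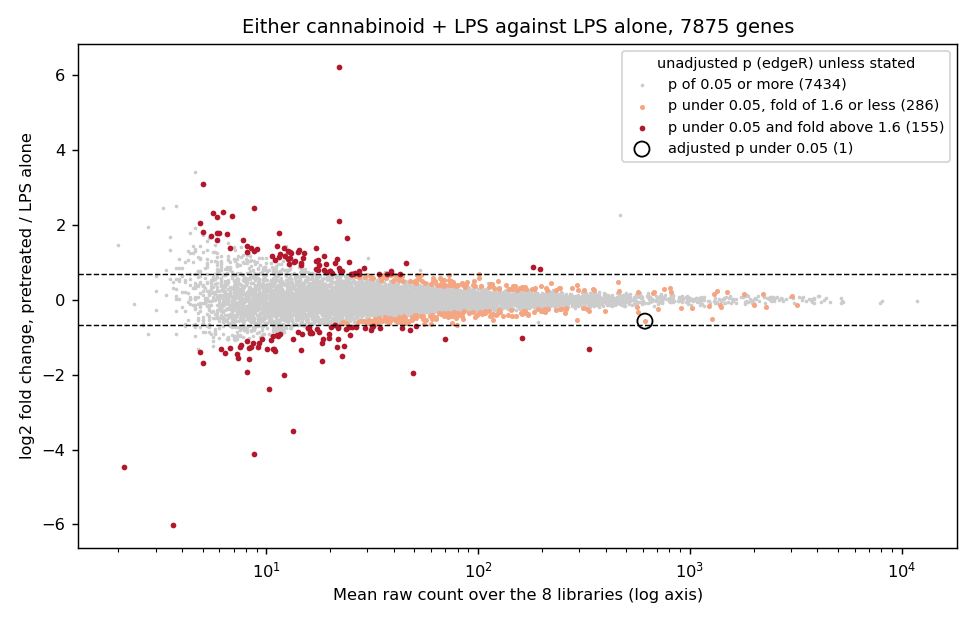
The log2 fold change of either cannabinoid + LPS over LPS alone (vertical axis) is plotted against the mean raw count of each of 7875 genes over the 8 libraries (horizontal log axis). Dashed lines mark a 1.6-fold change, the ring marks the gene with an adjusted p under 0.05, and the 155 dark red genes with an unadjusted p under 0.05 and the minimum fold lie mostly at low counts.

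The 155 genes were mostly weakly counted. Their median mean count was 14.8 per library, against 36 for all genes tested, and 104 of them (67.1%) had a mean count under 20. Only 6 had a mean count of 50 or more, out of 3131 such genes (0.192%). A single library carried over 90% of the summed CPM of 2 of the 155, THC library 1 in 1 of them (168 counts) and LPS library 1 in the other (28 counts). The LPS libraries themselves lay more than 1.6-fold apart in 60 of the 155 genes (38.7%), against 17.2% of all genes tested. The part of low counts in this difference was not tested.

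In abundant genes the counts were deep enough to bound the difference between these libraries. Whether that bound extends to independent cultures is not known. The 95% interval of the pooled log2 fold change lay within a 1.6-fold change in either direction for 3702 of 7875 genes (47%). This held for 2892 of the 3131 genes with mean counts of 50 or more (92.4%), and the median half-width of the interval was 0.30 on the log2 scale. Among the 4744 genes under that level it was so for 810 (17.1%), with a median half-width of 0.71. No gene with a mean count under 10 and 3 of 1384 with a mean count from 10 to under 20 had such an interval, so at this depth a 1.6-fold change was not bounded in nearly all of those genes. The intervals are for single genes, with no correction over genes. Their width draws more on a spread shared over genes (19.7 prior degrees of freedom) than on each gene's own libraries (4 residual degrees of freedom).

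Pooling the compounds narrowed the intervals only a little, with the same 2 LPS libraries on the other side. The median standard error was 0.25 on the log2 scale for either cannabinoid, 0.28 for THC and 0.29 for THC-COOH. The interval lay within 1.6-fold for 3168 genes (40.2%) with THC and 3043 (38.6%) with THC-COOH. In 317 genes the pooled interval did so where neither compound's own interval did.

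**Figure D2:**
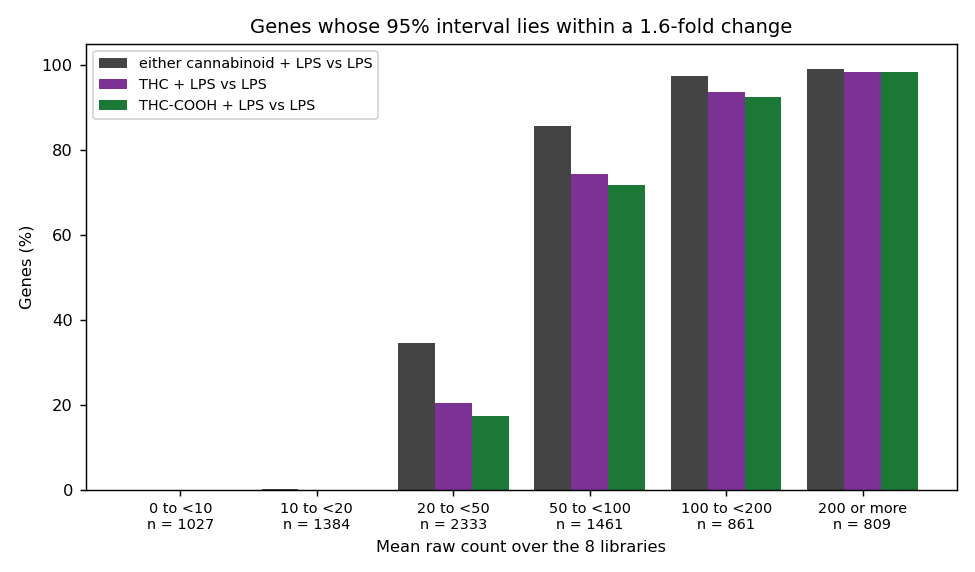
Bars give the percentage of genes whose 95% interval of the log2 fold change lies within 1.6-fold in either direction, in 6 classes of mean raw count, for either cannabinoid, THC and THC-COOH relative to LPS alone. For either cannabinoid the share was 34.6% at mean counts of 20 to under 50, 85.7% at 50 to under 100 and 99% at 200 or more.

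A change shared by both compounds was then asked for gene by gene. Taking the larger of the p-values for THC and for THC-COOH, where both fold changes had the same sign, 0 of 7875 genes (0%) passed after adjustment, and the smallest adjusted value was 1. Limma voom also gave 0, and so did DESeq2, with 16 genes at an unadjusted larger p under 0.05. The DESeq2 p-values for single compounds ran high. Before adjustment, 117 genes with THC and 114 with THC-COOH were under 0.05, against 394 if no gene differed. Genes with opposite signs could not pass, and the larger p is a strict criterion, so 0 genes does not show that no change is shared. At an unadjusted larger p under 0.05 there were 111 genes (1.41%), 47 higher (0.597%) and 64 lower (0.813%) with both compounds. The share to be reached if no gene differed was not computed for this test, and it is under 0.05. With both folds above 1.6 there were 45 (0.571%), 18 higher (0.229%) and 27 lower (0.343%). Both comparisons use the same LPS libraries, so an LPS library that stands apart at a gene moves both fold changes the same way. Each compound alone gave few DEGs relative to LPS in the edgeR fit. With THC there were 2 (0.0254%), 1 higher (0.0127%) and 1 lower (0.0127%), while 485 genes (6.16%) reached an unadjusted p under 0.05 and 211 (2.68%) of all tested also met the fold. For THC, DESeq2 gave 3 DEGs, 2 higher and 1 lower, and limma voom gave 1, which was lower. With THC-COOH there were 0 (0%), with 528 (6.7%) and 227 (2.88%) by the same unadjusted criteria, and both DESeq2 and limma voom gave 0. For each compound against LPS the paper reports many more DEGs, from DESeq2. Its methods name an adjusted p under 0.05, and its results text a p under 0.05. Why its counts differ from those given here was not tested. Compared directly, THC + LPS and THC-COOH + LPS cells differed in 18 DEGs (0.229%), 3 higher (0.0381%) and 15 lower (0.19%) with THC, and 694 genes (8.81%) had an unadjusted p under 0.05. The doses of the compounds differed in that comparison.

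All 4 pretreated libraries lay above both LPS libraries in 592 genes (7.52%) and below both in 573 (7.28%). Both folds also exceeded 1.6 in 91 (1.16%) and 57 (0.724%) of them, and the pooled unadjusted p was then under 0.05 in 44 (0.559%) and 32 (0.406%). With 15 ways to split the 6 libraries, the exact permutation p (two-sided) is at least 0.133, so no gene can pass on the order of its libraries alone. If no gene differed and every split was equally likely, a share of about 0.133 would lie above or below both LPS libraries. The observed share was 14.8% (1165 of 7875 genes), which is near that value.

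The 2 identifiers with the smallest larger p in each direction are given in full. ENSRNOG00000057078 had the strongest evidence of a lower level with a cannabinoid. It had 557 and 547 CPM in THC + LPS cells, 754 and 683 CPM in THC-COOH + LPS cells, 884 and 993 CPM in LPS cells, and 608 and 633 CPM in Control cells. Every pretreated library was below either LPS library, and the THC libraries were also below the THC-COOH libraries. The pooled log2 fold change was −0.57 (standard error 0.08, 95% interval −0.74 to −0.40, adjusted p = 0.0023 from edgeR). For THC it was −0.76 (adjusted p = 0.000283 from edgeR), while the value for THC-COOH was −0.38 (adjusted p = 0.277 from edgeR). Both thresholds were passed with THC and neither with THC-COOH. The THC call of ENSRNOG00000057078 was lost without THC library 1 (adjusted p = 0.0587 from edgeR) and without LPS library 2 (−0.68, just under the minimum fold). The difference of THC + LPS from THC-COOH + LPS was −0.38 (95% interval −0.58 to −0.19, adjusted p = 0.0944 from edgeR), which did not pass. The pretreated mean of 635 ± 101 CPM (SD, n = 4) lay near the Control mean of 620 ± 17.5 CPM (SD, n = 2), and the pooled log2 fold change relative to Control was 0.02 (95% interval −0.15 to 0.20). LPS alone was above Control by 0.59 on the log2 scale (adjusted p = 0.00928 from edgeR), a value that rests on the same LPS libraries and is under the minimum fold. That adjusted p was 0.169 without LPS library 2, 0.0824 without Control library 1 and 0.0529 without Control library 2. The pooled adjusted p of ENSRNOG00000057078 was 0.186 when the 4 pretreated libraries were fitted as 1 group and 0.119 without LPS library 2.

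ENSRNOG00000028021 was the other identifier that was lower with both compounds. It had 10.9 and 26.3 CPM in THC + LPS cells, 14.7 and 14.3 CPM in THC-COOH + LPS cells, 56.8 and 37.1 CPM in LPS cells, and 8.05 and 7.79 CPM in Control cells. The raw counts were 17 and 19 with THC, 15 and 13 with THC-COOH, 50 and 20 with LPS, and 6 and 6 in Control, so counting error is large. The pretreated libraries all lay below the LPS libraries and above the Control libraries. Relative to Control the pooled log2 fold change was 0.95 (95% interval −0.09 to 2.00, adjusted p = 0.781 from edgeR), which was not called. The pooled log2 fold change of ENSRNOG00000028021 was −1.64 (standard error 0.32, 95% interval −2.30 to −0.97, adjusted p = 0.0581 from edgeR), and it was not called. It was −1.54 with THC and −1.73 with THC-COOH on the log2 scale, and the 95% interval of their difference ran from −0.71 to 1.08, which spans more than 1.6-fold either way. The THC value of ENSRNOG00000028021 was −0.87 without THC library 1 and −2.13 without THC library 2. LPS was above Control by 2.59 on the log2 scale (adjusted p = 0.0116 from edgeR), with the same LPS libraries. That call held in 10 of 15 other fits and was lost by DESeq2 (adjusted p = 0.116), by limma voom (0.0979), without LPS library 1 (0.310), and without Control library 1 (0.117) or 2 (0.135). For pretreated over LPS cells, ENSRNOG00000028021 passed both thresholds in 8 of 17 other fits, with adjusted p from 0.00905 to 0.999, and the pooled value was −1.24 without LPS library 1 (adjusted p = 0.833 from edgeR).

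Of the identifiers higher with both compounds, ENSRNOG00000019529 had 53.8 and 62.3 CPM in THC + LPS cells, 55.0 and 65.8 CPM in THC-COOH + LPS cells, 30.7 and 27.8 CPM in LPS cells, and 42.9 and 59.8 CPM in Control cells. The LPS libraries were below all others, but LPS was not called relative to Control (log2 fold change −0.80, adjusted p = 0.550 from edgeR). The pooled log2 fold change of ENSRNOG00000019529 was 0.99 (standard error 0.25, 95% interval 0.47 to 1.50, adjusted p = 0.268 from edgeR), so it was not called. It was 0.95 with THC and 1.02 with THC-COOH, and the interval of the difference ran from −0.53 to 0.37. Over 17 other fits the pooled value of ENSRNOG00000019529 stayed between 0.92 and 1.08, with adjusted p from 0.120 to 0.999.

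ENSRNOG00000009888 had 130 and 109 CPM in THC + LPS cells, 118 and 126 CPM in THC-COOH + LPS cells, 63.6 and 94.6 CPM in LPS cells, and 110 and 131 CPM in Control cells. Again the LPS libraries were the lowest, and pretreated and Control libraries overlapped. Both higher identifiers were chosen for their difference from these LPS libraries, and the comparison of LPS with Control uses the same libraries. LPS was not called relative to Control (log2 fold change −0.66, adjusted p = 0.372 from edgeR). The pooled log2 fold change of ENSRNOG00000009888 was 0.68 (standard error 0.17, 95% interval 0.32 to 1.03, adjusted p = 0.271 from edgeR), and it was 0.68 with each compound, just under the minimum fold. It depended on the LPS libraries, since it was 0.37 to 0.94 over 17 other fits.

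**Figure D3:**
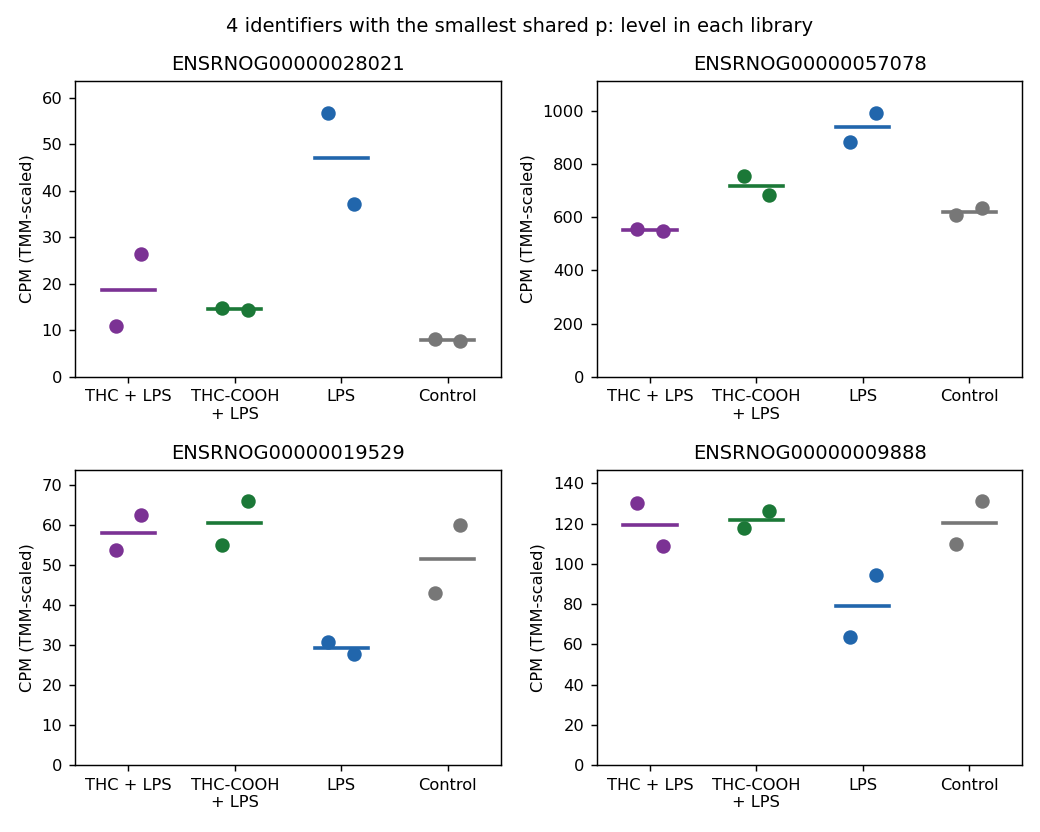
Each panel shows the CPM of 1 identifier in each library (points) and the mean of the 2 libraries (lines) for THC + LPS, THC-COOH + LPS, LPS and Control cells. The upper panels are the identifiers lower with both compounds and the lower panels those higher with both, and in each panel the pretreated libraries do not overlap the LPS libraries.

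Relative to untreated Control cells, cells given either cannabinoid and LPS had 3 DEGs (0.0381%), 0 higher (0%) and 3 lower (0.0381%), and 496 genes (6.3%) had an unadjusted p under 0.05. The call of 1 of these 3 rests on a single Control library. The other 2 had mean counts of 22.1 and 36.5, and 1 of them was also a DEG of LPS alone relative to Control. The median absolute log2 fold change relative to Control was 0.17.

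Whether the leading genes rest on single libraries was asked by leaving out each library in turn. Of the 155 genes with an unadjusted p under 0.05 and the minimum fold, 58 still met both without LPS library 1 and 70 without LPS library 2, against 89 to 111 without a pretreated library. Only 18 met both without either LPS library in turn, and 16 without any of the 6 libraries in turn. Of the 45 genes that met both with each compound, 14 held without either LPS library in turn and 13 without any of the 6. In these fits the 45 genes, too, were held only to the pooled p and fold, and a change with each compound was not asked for again. Leaving out a library also widens the intervals, and the remaining LPS library then stands alone. ENSRNOG00000028021 and ENSRNOG00000019529 were among the genes that held. ENSRNOG00000057078 and ENSRNOG00000009888 were in neither the 155 nor the 45, since their pooled folds (1.49 and 1.597) were under the minimum. Over 17 other fits, 12 genes were called DEGs at least once, 11 lower and 1 higher with a cannabinoid. In 10 of these 12 the LPS libraries lay more than 1.6-fold apart, against 17.2% of all genes tested. LPS library 1 was the higher in 7 and LPS library 2 in 3. Some of the 17 fits leave out an LPS library, which favours genes where the LPS libraries differ. The 10 of 12 is therefore partly built in by the choice of fits.

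**Figure D4:**
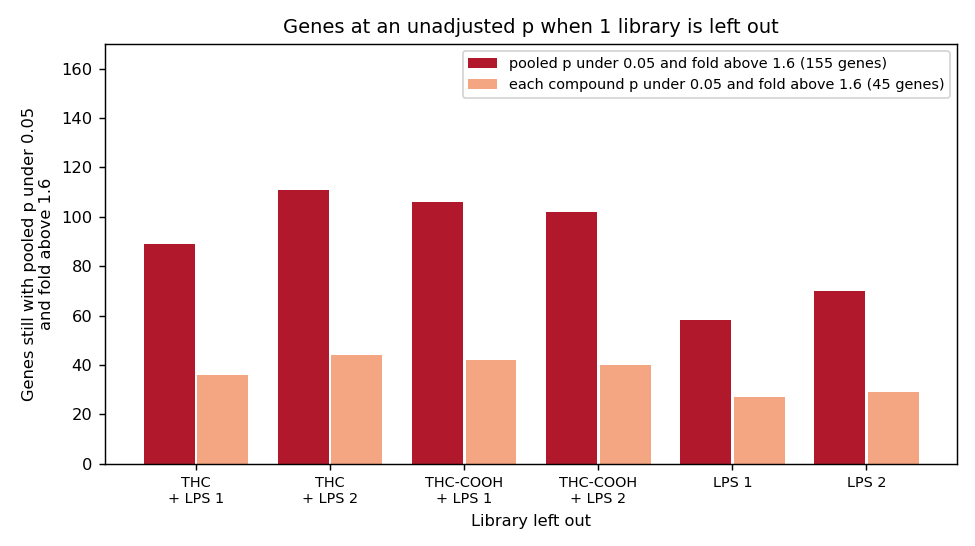
Bars give how many of the 155 genes with a pooled unadjusted p under 0.05 and a fold change above 1.6, and of the 45 genes that met this with each compound, still have such a pooled p and fold when the library named on the horizontal axis is left out. The bars are lowest without an LPS library, at 58 and 70 of 155 and at 27 and 29 of 45.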

How the data were processed

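The authors prepared bulk MARS-seq libraries, in which the 3' ends of polyadenylated RNA are read. The submitters' processing notes name bcl2fastq 2.20.0.422, cutadapt, STAR 2.7.3a, HTSeq and the build Rnor_6.0. How molecular identifiers and the annotation release were handled is not given in the sources used here. Deposited raw counts are whole numbers per gene, not normalized by the authors, and whether they count reads or molecules is therefore unknown. The deposited signal is the same counts, which the authors divided by 1 size factor per library, and it was not used for tests. Counts of all 8 libraries were fitted together with edgeR 4.0.16 in R 4.3.3 (TMM, quasi-likelihood, 1 coefficient per group, 4 residual degrees of freedom), and p-values were adjusted by Benjamini-Hochberg over 7875 genes. Either cannabinoid is the mean of both pretreated coefficients minus LPS. Standard errors come from the fitted weights and the posterior quasi-dispersion, which adds 19.7 prior degrees of freedom from the spread over all genes. The maximum raw count above 10, adjusted p and minimum fold are those of the paper's methods. Alternatives included DESeq2 1.42.0, limma voom (limma 3.58.1), other filters and scaling, fewer libraries and a replicate block. Fits were tested on simulated data.

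The comparison, gene lists and tests were chosen with earlier results of these data known. Named genes were to be the leading genes per direction, genes in the paper's text and 2 members of each list. As identifiers were not paired with symbols, 2 per direction with the smallest larger p are printed. The molar dose of THC came from its molecular mass in rdkit 2024.09.2. Plots were made in matplotlib 3.10.9.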

Additional observations from a re-analysis of the deposited data

How the results depend on the processing

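DEG counts are given for either cannabinoid, THC and THC-COOH, each against LPS, where edgeR gave 0, 2 and 0. Using all genes with any count gave 6, 16 and 9, with the 6 LPS-exposed libraries only 4, 5 and 0, and with limma voom 1, 1 and 0. DESeq2 gave 0, 3 and 0. Dropping the minimum fold gave 1, 2 and 0, and taking the unadjusted p, which corrects for nothing, gave 155, 211 and 227. Single libraries left out gave 0 to 5, 0 to 9 and 0 to 9. For THC it was 9 without LPS library 2 and 0 without THC library 1, and for THC-COOH 9 without LPS library 1. For either cannabinoid it was 4 without LPS library 1, 5 without LPS library 2, 4 without either Control library, 1 without THC library 2 and 0 without the other libraries. The 6 genes of the first count were all lower with a cannabinoid. Removing 3 genes with over 90% of their CPM and at least 50 counts in 1 library, chosen as a setting after seeing the data, gave a pooled count of 6. The test of a change by each compound gave 0 to 4 when libraries were left out (4 without LPS library 1, 3 without LPS library 2), 45 with an unadjusted p and folds, and 0 in the other fits. Apart from thresholds, the cause was not tested. DESeq2 size factors, filterByExpr, DESeq2 and the 4 pretreated libraries as 1 group gave 0 pooled DEGs. No direction was reversed for the 4 identifiers. Other settings for the gene lists were not tried because no symbols were paired.

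Adding a replicate block gave 7, 18 and 8. Whether the replicate numbers pair the libraries is not given in the sources used here. Correlations of deviations over the 6 pairs of groups ran from −0.02 to 0.04, and 3 of the 6 were above 0. These run over all genes tested, many of them weakly counted, so they cannot exclude a pairing seen in some genes only.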
